A study of Saccharomyces cerevisiae with 15 samples.

Results

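The 10 genes described here are the ADE genes that encode the enzymes of purine synthesis in the yeast Saccharomyces cerevisiae: ADE4 (YMR300C), ADE5,7 (YGL234W), ADE8 (YDR408C), ADE6 (YGR061C), ADE2 (YOR128C), ADE1 (YAR015W), ADE13 (YLR359W), ADE16 (YLR028C), ADE17 (YMR120C) and ADE12 (YNL220W). They were taken by name from the 6600 genes for which reads had been counted, and all 10 passed the filter on low counts that left 5851 genes for testing. Each ADE gene had between 608 and 10947 counts in every library, so counting error was small beside the differences between cultures.

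Polyadenylated RNA of 5 strains, with 3 cultures for each, was sequenced to ask how mRNA levels respond to a defect in assembly of RNA polymerase III, and whether plasmids that suppress the growth defect change that response. All 5 strains were the haploid rpc128-1007 mutant, which carries a defective allele of the gene for the second largest subunit of RNA polymerase III (listed as RET1 in the reference), and they differed in the plasmid. In wt the plasmid was centromeric and held the native RPC128 gene with the marker URA3, in rpc128-1007[-] it was an empty vector, in rpc128-1007[PRT1] it was a high-copy plasmid with PRT1, a subunit of translation initiation factor eIF3, and in rpc128-1007[RBS1] and rpc128-1007[RBS1-R3H] it was a high-copy LEU2 plasmid with RBS1, or with an inactive form of RBS1 altered in the R3H domain. The plasmid in brackets alone, such as [RBS1-R3H], stands below for the mutant that carries it. The PRT1 insert also held the 3′ part of PRE10, and which of a URA3 and a LEU2 version of this plasmid was used is not stated. Precultures lacked uracil or leucine, and RNA came from log-phase cells in YPD, a rich medium with glucose. Plasmid marker and preculture medium cannot be told apart from strain where [RBS1] or [RBS1-R3H], which share a vector, is set against a strain with another plasmid. Comparisons among wt, rpc128-1007[-] and [PRT1] also set different plasmids against each other.

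The background includes a mutant allele of 1 of the genes. In the strain description every strain carries the nonsense allele ade2-1 and the ochre suppressor tRNA gene SUP11, besides mutations in URA3, LYS2, LEU2 and HIS3 (1 sentence of the study's text writes ade1-2 instead). A comparison of strains here is therefore a comparison among ade2-1 strains, and no strain had a wild-type ADE2 gene. Red pigment forms from the substrate of the Ade2 enzyme when that enzyme is missing. The study describes red colonies for the mutant, white ones with RBS1 and light pink ones with PRT1. It presumes that red marks a low dosage of SUP11 and low tRNA levels. Ade2 function may therefore differ between strains that share the allele. Its bearing on the other ADE genes was not tested. Counts of reads per gene do not show the allele, the amount of read-through or any enzyme, but ADE2 mRNA was counted in every library, with between 1181 and 2297 reads.

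Total counts per library ranged from 7365923 to 12164321. The plasmid genes fitted the labels: PRT1 lay between 4449 and 5057 CPM (the reads of a gene as a share of its library, after scaling by the trimmed mean of M-values, TMM) in [PRT1] and between 540.4 and 743 elsewhere, RBS1 between 2464 and 4582 in the strains with its plasmids and between 72.9 and 134 elsewhere, and RET1 between 432 and 473 in wt and between 182 and 271 elsewhere. URA3 lay between 722 and 746 CPM in wt, 2028 and 2295 in rpc128-1007[-], 958 and 997 in [PRT1] and 183 and 227 in the strains with an RBS1 plasmid, whereas LEU2 lay between 317 and 897 CPM in the first 3 of these strains and between 1898 and 4429 in the last 2. By both markers, [PRT1] thus stood with wt and rpc128-1007[-]. In replicate 2 of rpc128-1007[-] and replicate 2 of [RBS1], levels rose with gene length relative to the other libraries of their strain (Spearman's rho across genes 0.559 and 0.501), and the results were also computed without these 2 libraries.

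De novo purine synthesis builds the purine ring on phosphoribosyl pyrophosphate (PRPP) and ends at inosine monophosphate (IMP), from which separate branches lead to AMP and GMP. In yeast, most genes of the pathway are activated by Bas1 together with Pho2 and are repressed when adenine is supplied. Bas1 recognises the letters TGACTC, which are also the core of the site of Gcn4, the activator of the general response to amino acid shortage. Histidine synthesis is tied to the pathway, since it releases the purine intermediate AICAR, and so is the folate pathway, which supplies one-carbon units.

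The sequence upstream of the ADE genes shows this shared core. Of the 10 genes, 9 held TGACTC on either strand within 500 bases upstream of the start codon, against 12.7% of 6000 yeast promoters of that length, and the exception was ADE16. The 9 genes held 15 matches in all. The longer Gcn4 site TGANTCA was present in 11.8% of the 6000 promoters and in 1 of the 10, ADE12, where it overlapped a TGACTC match. For the 9 genes with a match, the one nearest to the start codon is printed below with 12 bases on either side. Each line reads 5′ to 3′ on the strand of the gene, from the RefSeq sequence of assembly R64, and the capitals mark the core, as TGACTC or as its reverse complement GAGTCA.
ADE4 (chrXIII:867431-867460, minus strand): gacccgatgtatTGACTCttcctgaccgaa
ADE5,7 (chrVII:56286-56315, plus strand): acaagtgccgacTGACTCgtgtcctggtaa
ADE8 (chrIV:1289009-1289038, minus strand): actcgttgctagTGACTCtgacctgttttt
ADE6 (chrVII:616224-616253, minus strand): ttcaaccgttccTGACTCtttcctgctgac
ADE2 (chrXV:566327-566356, minus strand): atactaagtgatTGACTCttgctgaccttt
ADE1 (chrI:169146-169175, plus strand): cacgagtcagtcTGACTCttgcgagagatg
ADE13 (chrXII:844054-844083, plus strand): cctccgcgagcaGAGTCAaacttcaaacaa
ADE17 (chrXIII:509440-509469, minus strand): ccagaaatgaatTGACTCctctcataactt
ADE12 (chrXIV:234179-234208, plus strand): atccttttcattGAGTCAcagattaacaaa
The first base of the core lay between 153 bases (ADE2) and 357 bases (ADE4) upstream of the start codon. In the ADE12 line the letter before the core completes TGAGTCA, a form of the Gcn4 site. A match describes the letters only and is not a measured binding site.

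Summed over the 10 genes, ADE transcripts stood at 3055 ± 68.5 CPM in wt, 3606 ± 343 in rpc128-1007[-], 4302 ± 307 in [RBS1-R3H], 2941 ± 289 in [PRT1] and 3368 ± 591 in [RBS1] (SD, n = 3 for each). The highest sum was thus in the strain with the inactive suppressor, and the spread between cultures was smallest in wt and widest in [RBS1]. Per kilobase of coding sequence, mean levels in wt fell in the order ADE13 (302 CPM per kilobase), ADE1 (290.4), ADE5,7 (269.8), ADE8 (231), ADE12 (185), ADE16 (154), ADE4 (140.2), ADE6 (123), ADE2 (112) and ADE17 (72.6). The libraries overlapped between 3 of the 9 neighbouring pairs, which were ADE13 with ADE1, ADE1 with ADE5,7 and ADE16 with ADE4. In [RBS1-R3H] ADE5,7 (428 CPM per kilobase) and ADE12 (406) came first and ADE2 (106) last, with overlap between 6 of the 9 neighbouring pairs. ADE16 (147 CPM per kilobase) and ADE17 (110.4), which encode isozymes, lay closer to each other there than in wt.

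**Figure D1:**
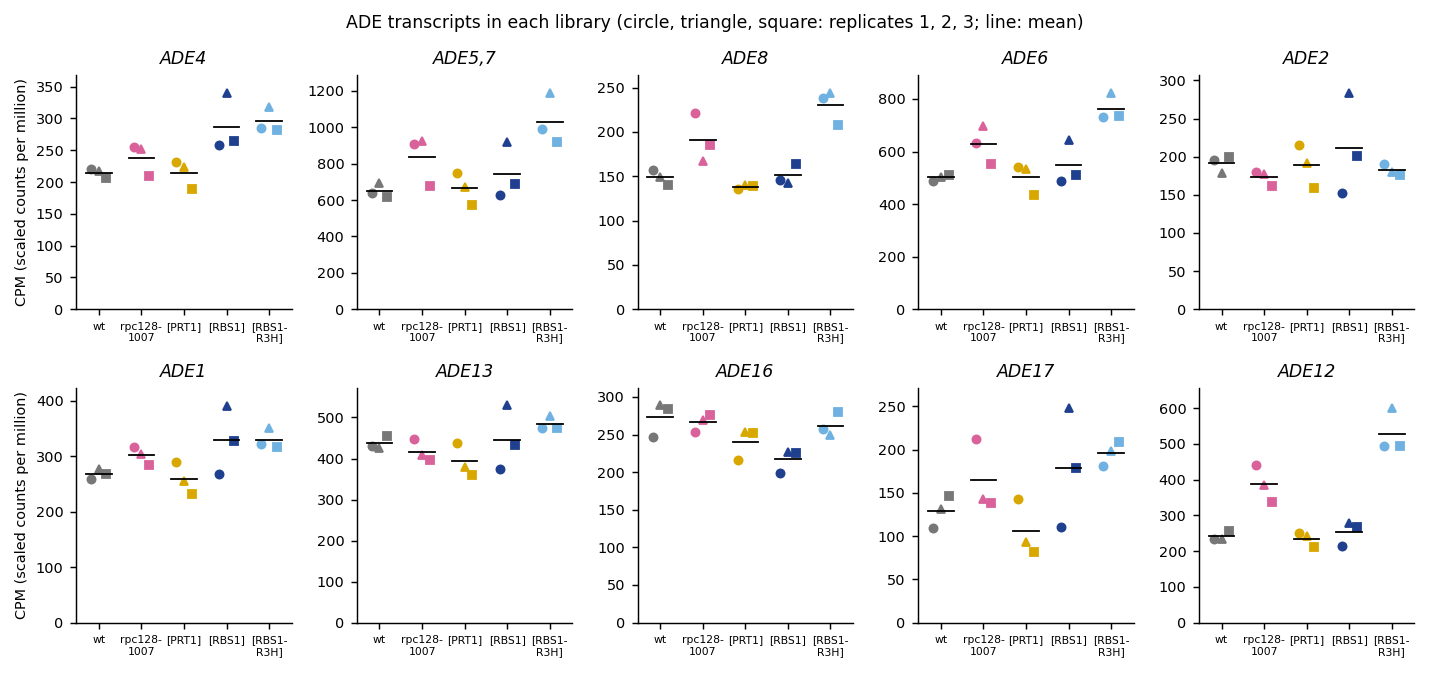
Level of each ADE transcript in every library, in CPM on a linear axis from 0, with the 5 strains along the x axis; circles, triangles and squares are replicates 1, 2 and 3, and lines are strain means. ADE12 stands between 493 and 600.0 CPM in [RBS1-R3H] and between 211 and 279 in wt, [PRT1] and [RBS1], whereas ADE2 overlaps between all strains.

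ADE12 encodes adenylosuccinate synthase, the enzyme that turns IMP towards AMP, and the ratio of its highest to its lowest strain mean was the largest of the 10 genes. In wt its level was 232, 235 and 255 CPM in replicates 1 to 3, and in rpc128-1007[-] it was 441, 384 and 337 CPM. The corresponding values were 493, 600.0 and 494 CPM in [RBS1-R3H], 249.6, 241 and 211 CPM in [PRT1] and 215, 279 and 268 CPM in [RBS1]. Every library of rpc128-1007[-] and [RBS1-R3H] lay above every library of the other strains, and wt, [PRT1] and [RBS1] overlapped. The log2 fold change was 0.69 (standard error, SE, 0.12) in rpc128-1007[-] against wt, a 1.61-fold difference, with an adjusted p of 0.00126 in edgeR's quasi-likelihood test over all genes, as for the adjusted p-values below. In [RBS1-R3H] against wt it was 1.14 (SE 0.12, adjusted p = 8.53e-06), a 2.20-fold difference.

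The genes of the first steps were highest in [RBS1-R3H] as well. ADE4 encodes the amidotransferase of the committed step on PRPP, ADE5,7 a bifunctional enzyme of the next and a later step, ADE8 the first formyltransferase and ADE6 the synthetase that follows it. ADE8 was at 157, 149 and 140.3 CPM in wt, 221, 168 and 185 in rpc128-1007[-], 238, 244 and 208 in [RBS1-R3H], 136, 140.3 and 139 in [PRT1] and 146, 143 and 164 in [RBS1]. As for ADE12, the libraries of rpc128-1007[-] all lay above those of wt, [PRT1] and [RBS1], although they overlapped those of [RBS1-R3H].

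ADE6 was at 489, 505 and 511 CPM in wt, 633, 697 and 552 in rpc128-1007[-], 729.6, 823 and 736 in [RBS1-R3H], 541, 533 and 434 in [PRT1] and 489.8, 643 and 513 in [RBS1]. ADE5,7 was at 636, 695 and 618 CPM in wt, 911, 926 and 678 in rpc128-1007[-], 989, 1187 and 917 in [RBS1-R3H], 746, 671 and 576 in [PRT1] and 628, 919 and 689 in [RBS1]. For both genes replicate 3 was the lowest of rpc128-1007[-] and replicate 2 the highest of [RBS1]. ADE4 was at 221, 218 and 206 CPM in wt, 254, 251 and 209.7 in rpc128-1007[-], 285, 319 and 282 in [RBS1-R3H], 231, 224 and 189 in [PRT1] and 257, 341 and 264 in [RBS1]. Unlike the other genes of the early steps, ADE4 was above wt in every library of both strains with an RBS1 plasmid.

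ADE2 encodes the carboxylase that acts on the substrate from which the red pigment forms, and ADE1 the synthetase of the following step. ADE2 was at 196, 178 and 200.04 CPM in wt, 179.7, 177 and 162 in rpc128-1007[-], 190.1, 181 and 176 in [RBS1-R3H], 215, 192 and 159 in [PRT1] and 152, 284 and 200.5 in [RBS1]. The strains overlapped, apart from replicate 2 of [RBS1], which was the highest of the 15 libraries beside replicate 1 of the same strain, the lowest. ADE2 was called in none of the 9 comparisons, and in rpc128-1007[-] against wt the 95% interval of its log2 fold change ran from -0.51 to 0.22. ADE1 lay between 258 and 277 CPM in wt and between 316 and 350.4 in [RBS1-R3H], without overlap, but its log2 fold change of 0.30 (SE 0.12) did not pass the test (adjusted p = 0.0807).

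The later steps involve 3 more genes. ADE13 encodes adenylosuccinate lyase, which serves both the main pathway and the branch to AMP, and ADE16 and ADE17 encode 2 isozymes that carry out the final pair of reactions. ADE13 ranged from 360.0 to 531 CPM over all libraries and was called in none of the 9 comparisons. ADE16 was at 247, 289.8 and 284 CPM in wt, 254, 269.9 and 276 in rpc128-1007[-], 257, 249 and 279.5 in [RBS1-R3H], 216, 253 and 251 in [PRT1] and 199, 227 and 225 in [RBS1]. The [RBS1] libraries lay below those of wt, rpc128-1007[-] and [RBS1-R3H], and ADE16 had the smallest spread between replicates of the 10 genes.

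ADE17 was at 109, 132 and 147 CPM in wt, 213, 143 and 139 in rpc128-1007[-], 182, 198 and 209 in [RBS1-R3H], 142, 93.7 and 82.1 in [PRT1] and 111, 248 and 178 in [RBS1]. Its replicates differed more than those of any other ADE gene, with a pooled SD of 0.371 on the log2 scale, above that of 89.0% of the tested genes, against 0.105 and 24.2% for ADE16. The coding sequences of both isozymes are 74.8% identical with no shared run over 19 bases, so reads were unlikely to be split between them. ADE17 passed the test in no comparison.

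The comparison of rpc128-1007[-] with wt is that of the assembly defect, but the plasmids differ as well. URA3 and LEU2 transcripts were higher in rpc128-1007[-] by 1.52 and 1.09 on the log2 scale (adjusted p = 4.59e-07 and 0.000791). These differences cannot be told apart from that of the defect. Of the 10 genes, 2 rose, ADE12 (above) and ADE8, and none fell. Over all tested genes, 12.7% were called higher and 5.62% lower. The log2 fold change of ADE8 was 0.36 (SE 0.10, adjusted p = 0.0200). The others were not called and ranged from -0.15 for ADE2 to 0.37 for ADE5,7. The median over the 10 genes was 0.25, against 0.013 over all tested genes, and in 4 of the 10 the libraries of the strains did not overlap with rpc128-1007[-] higher, against 20.2% of all genes. In a fit with a replicate block, ADE5,7 and ADE6 were called as well, 4 genes in all. The number called was also 4 without replicate 3 of rpc128-1007[-], 3 without replicate 2 of [RBS1], where ADE6 joined, and 1, ADE12, without replicate 1 of rpc128-1007[-], replicate 2 of wt or replicate 3 of wt.

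The largest response of the ADE genes was in [RBS1-R3H] against wt, in which 5 of the 10 rose and none fell, where 13.4% of all tested genes were called higher and 9.55% lower. Besides ADE12, these were ADE5,7 with a log2 change of 0.67 (SE 0.16, adjusted p = 0.00647), ADE8 with 0.63 (0.10, adjusted p = 0.000349), ADE6 with 0.61 (0.12, adjusted p = 0.00162) and ADE4 with 0.46 (0.12, adjusted p = 0.0103). Thus 4 of the 5 encode the enzymes of the early steps, and ADE12 that of the AMP branch. The libraries did not overlap in 8 of the 10, with [RBS1-R3H] higher, against 22.8% of all genes. The exceptions were ADE2 and ADE16, at -0.07 and -0.06. The median was 0.53, against -0.015 over all genes. Leaving out any of the 15 libraries left these 5 called, and ADE1 joined them without replicate 1 or replicate 2 of [RBS1]. These 2 libraries are outside the comparison but bear on the shared spread and on the filter, with 5867 and 5874 genes tested without them.

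[RBS1-R3H] was compared directly with rpc128-1007[-], to ask whether the inactive suppressor changes the mutant. ADE12 alone was called, higher by 0.45 on the log2 scale (SE 0.12, adjusted p = 0.0277), where 4.67% of all tested genes were called higher and 6.8% lower. The next were ADE4 at 0.31, ADE5,7 at 0.30, ADE6 at 0.28 and ADE8 at 0.27, each with an adjusted p between 0.104 and 0.277. Except for ADE16 at -0.03, every gene had a positive value, with a median of 0.26 against 0.00022 over all genes. The ADE12 call was lost without replicate 2 or replicate 3 of rpc128-1007[-] or replicate 2 of [RBS1-R3H]. The number called was 0 without any 1 of these 3 and 2 without replicate 1 of rpc128-1007[-] or replicate 3 of [RBS1-R3H], where ADE8 joined, or without replicate 2 of [RBS1], where ADE4 joined.

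**Figure D2:**
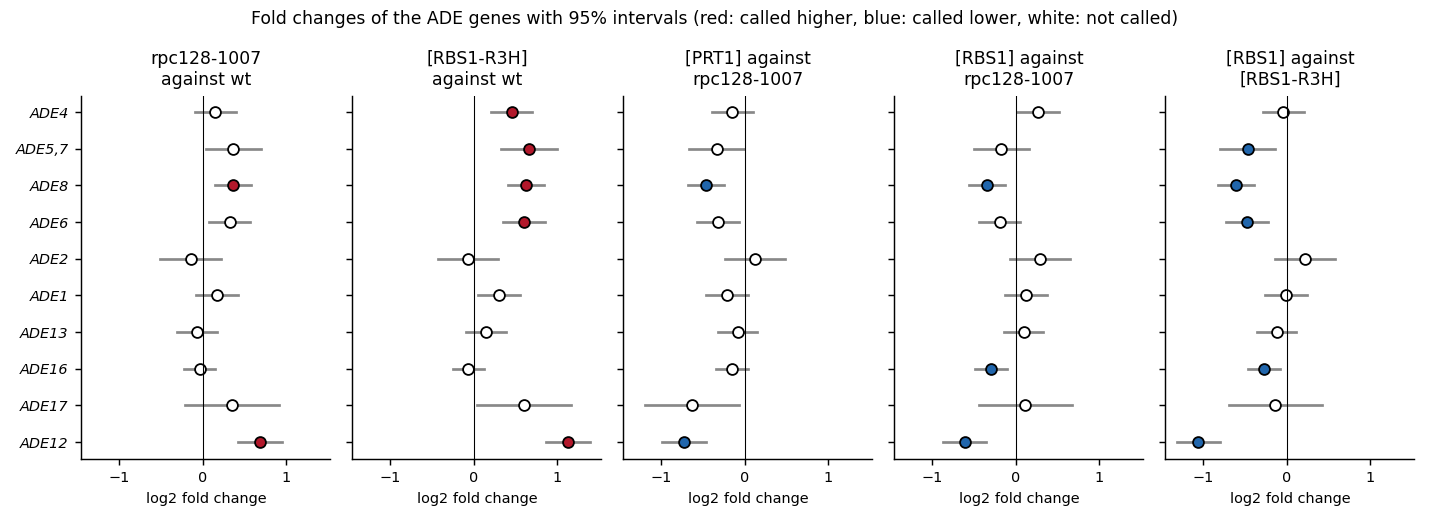
Log2 fold change of each ADE gene (x axis) in 5 comparisons, with 95% intervals; red and blue points passed the test at an adjusted p under 0.05 and white points did not. ADE12 is called in all 5, from 0.69 and 1.14 against wt to -1.06 in [RBS1] against [RBS1-R3H]. ADE1, ADE2, ADE13 and ADE17 are called in none.

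With a suppressing plasmid, ADE12 and ADE8 were lower than with the empty vector. In [PRT1] against rpc128-1007[-], these 2 genes fell and none rose, where 13.7% of all tested genes were called lower and 8.1% higher. ADE12 fell by 0.73 on the log2 scale (SE 0.12, adjusted p = 0.00048) and ADE8 fell by 0.47 (0.10, adjusted p = 0.00329). The other values ranged from -0.63 for ADE17, with an adjusted p of 0.108, to 0.13 for ADE2, and the median was -0.27 against 0.017 over all genes. Without replicate 3 of rpc128-1007[-], 4 genes were called, ADE5,7 and ADE6 being added. ADE6 was added without replicate 2 of [RBS1], and ADE17 without replicate 1 of [PRT1].

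In [RBS1] against rpc128-1007[-], 3 genes fell and none rose, where 17.1% of all tested genes were called lower and 12.6% higher. ADE12 fell by 0.61 (SE 0.12, adjusted p = 0.00201), ADE8 fell by 0.34 (0.10, adjusted p = 0.0188) and ADE16 fell by 0.30 (0.09, adjusted p = 0.0201). Genes of the early steps had values of both signs, 0.27 for ADE4 and -0.19 for ADE6. In a fit with a replicate block, ADE4 was called higher at 0.27 (adjusted p = 0.0248), beside the 3 genes that fell, and it was also called with library totals (0.36, adjusted p = 0.0203) and with the length trend removed (0.30, adjusted p = 0.0397). Without the block its adjusted p was 0.0952. The median over the 10 genes was -0.037 against -0.013 over all genes. The call of ADE8 was lost without replicate 1 of rpc128-1007[-] or replicate 1 or 2 of [RBS1], that of ADE16 without replicate 3 of rpc128-1007[-] or replicate 1 of [RBS1], and ADE2 or ADE6 was gained without replicate 1 or replicate 2 of [RBS1]. This comparison, that of [PRT1] and that of [RBS1-R3H] share the rpc128-1007[-] libraries.

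The comparison of [RBS1] with [RBS1-R3H] sets the intact against the altered R3H domain on the same vector. Plasmid transcripts differed between these strains as well, without overlap. RBS1 was at 4223 to 4582 CPM in [RBS1] and at 2464 to 3947 in [RBS1-R3H]. LEU2 was at 1898 to 3028 CPM in [RBS1] and at 3410 to 4429 in [RBS1-R3H]. These differences cannot be told apart from that of the domain. Of the 10 genes, 5 were lower with intact RBS1 and none was higher, where 14.4% of all tested genes were called lower and 13.5% higher. ADE12 was lower at a log2 fold change of -1.06 (SE 0.12, adjusted p = 1.87e-05), ADE8 by -0.61 (0.10, adjusted p = 0.000436), ADE6 by -0.48 (0.12, adjusted p = 0.0071), ADE5,7 by -0.47 (0.16, adjusted p = 0.0366) and ADE16 by -0.27 (0.09, adjusted p = 0.0335). ADE1 and ADE4 were at -0.0048 and -0.04, with 95% intervals from -0.26 to 0.25 and from -0.29 to 0.21. The median was -0.20 against 0.012 over all genes, and the libraries did not overlap in 4 of the 10, against 21% of all genes. The call of ADE5,7 was lost without replicate 1 or 3 of [RBS1] or replicate 1 or 2 of [RBS1-R3H], and that of ADE16 without replicate 1 of [RBS1] or replicate 1 or 3 of [RBS1-R3H], so that 3 remained without replicate 1 of either strain. ADE12, ADE8 and ADE6 were called whichever library was left out.

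Against wt, [PRT1] had no ADE gene called in either direction, where 7.06% of all tested genes were called higher and 4.91% lower. None of the 10 had an unadjusted p under 0.05 in edgeR, and DESeq2 and limma-voom called 0 as well. Their log2 fold changes lay between -0.28 and 0.03. In a fit with a replicate block, ADE16 was called lower. Intervals were widest for ADE17, from -0.85 to 0.28, and narrowest for ADE16, from -0.38 to 0.0026.

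In [RBS1] against wt, ADE4 was higher by 0.42 (SE 0.12, adjusted p = 0.0356) and ADE16 lower at a log2 fold change of -0.34 (0.09, adjusted p = 0.0305), where 6.53% of all tested genes were called higher and 4.29% lower. ADE12 and ADE8, which had fallen from their levels in rpc128-1007[-], were at 0.08 and 0.02. Both calls were lost without replicate 2 or replicate 3 of wt. The call of ADE4 alone was lost without replicate 1 of wt, replicate 2 of [RBS1] or replicate 1 of [RBS1-R3H], and that of ADE16 alone without replicate 1 of [RBS1], where ADE1 joined.

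[PRT1] and [RBS1], both plasmids that suppress the mutant, differed in ADE4, which was lower in [PRT1] at a log2 fold change of -0.42 (SE 0.12, adjusted p = 0.0214), where 7.78% of all tested genes were called lower and 8.55% higher. ADE17 at -0.75 and ADE1 at -0.34 had adjusted p-values of 0.0691 and 0.0633. The ADE4 call was lost without replicate 3 of [PRT1] or replicate 2 of [RBS1], which left 0 genes called, and without replicate 1 of either strain ADE1 and ADE17 were called as well, 3 in all.

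The activators of the pathway were read beside its genes. BAS1 transcripts were at 57.9, 50.2 and 42.9 CPM in wt, 197, 139 and 136 in rpc128-1007[-], 139, 157 and 133 in [RBS1-R3H], 69.3, 67.0 and 50.8 in [PRT1] and 54.9, 65.2 and 62.3 in [RBS1]. Every library of rpc128-1007[-] and [RBS1-R3H] was above every library of the other 3 strains, the same division as for ADE12. The log2 fold change of BAS1 was 1.64 (SE 0.16, adjusted p = 1.06e-05) in rpc128-1007[-] against wt and -1.23 (0.16, adjusted p = 4.74e-05) in [RBS1] against [RBS1-R3H], larger in size than that of any ADE gene. BAS1 was not called in [RBS1-R3H] against rpc128-1007[-], at -0.14 (0.15, adjusted p = 0.69).

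PHO2, whose product acts with Bas1, stayed between 21.1 and 36.1 CPM in all libraries. Its log2 fold change was -0.25 in rpc128-1007[-] against wt, not called, and it was higher by 0.43 (SE 0.12, adjusted p = 0.0179) in [RBS1] against [RBS1-R3H], a call that was lost without replicate 1 of [RBS1] or replicate 2 or 3 of [RBS1-R3H]. GCN4 mRNA was at 1035, 1075 and 1061 CPM in wt, 1446, 1309 and 1332 in rpc128-1007[-], 1593, 1698 and 1611 in [RBS1-R3H], 1072, 1206 and 1220 in [PRT1] and 1378, 1296 and 1491 in [RBS1]. It rose by 0.37 (SE 0.07, adjusted p = 0.00281) in rpc128-1007[-], by 0.63 (0.07, adjusted p = 1.83e-05) in [RBS1-R3H] and by 0.39 (0.07, adjusted p = 0.00451) in [RBS1], each against wt. The [RBS1] libraries overlapped those of rpc128-1007[-], with a log2 fold change of 0.03 (95% interval from -0.13 to 0.18). GCN4 mRNA thus did not show the division of strains seen for ADE12 and BAS1. Gcn4 is controlled mainly in translation, so its mRNA level does not give the amount of the protein. In the study, a reporter of GCN4 translation was induced in the mutant. It lay close to wild type with RBS1 or PRT1 and did not fall significantly with RBS1-R3H. The study also describes Gcn4-dependent genes as higher in the mutant, lower with either suppressor and raised by RBS1-R3H. None of the 3 activator genes held TGACTC or TGANTCA in its 500 upstream bases. For GCN4 this window, counted from the start codon, takes in leader sequence of the mRNA, where the study describes short upstream reading frames. How far it reaches into the GCN4 promoter was not checked.

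Other genes known as Bas1 targets have roles in one-carbon, glycine, glutamine and histidine metabolism. In the comparisons counted next, their median changes were larger than those of the ADE genes. Of 10 such genes, 7 were higher in rpc128-1007[-] against wt (median log2 fold change 0.97), 7 lower in [PRT1] and 8 lower in [RBS1] against rpc128-1007[-], 9 higher in [RBS1-R3H] against wt (median 1.16) and 9 lower in [RBS1] against [RBS1-R3H] (median -1.37), with none called the other way in these comparisons. Over all tested genes the shares called in those directions were 12.7%, 13.7%, 17.1%, 13.4% and 14.4%. Elsewhere the medians were not larger throughout. In [RBS1-R3H] against rpc128-1007[-] these targets had 0.25 and the ADE genes 0.26. The same 2 medians were 0.08 and 0.14 in [RBS1] against wt, and 0.016 and -0.044 in [PRT1] against wt. In [PRT1] against [RBS1] they were -0.058 and -0.16. All 10 of these targets held TGACTC and 4 held TGANTCA upstream, against 9 and 1 of the ADE genes. HIS4, a multifunctional enzyme of histidine synthesis, was at 331, 290.4 and 501 CPM in wt, 1881, 1569 and 1208 in rpc128-1007[-], 2843, 3254 and 2528 in [RBS1-R3H], 312, 272 and 285 in [PRT1] and 525, 537 and 572 in [RBS1]. Its log2 fold change of 2.05 (SE 0.19, adjusted p = 6.84e-06) in rpc128-1007[-] against wt was the highest of the list. The study names HIS4 among the Gcn4-dependent genes, so the list is not one of genes under Bas1 alone. The parts of Bas1 and Gcn4 in the changes of these targets were not tested.

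GCV2, a subunit of glycine decarboxylase, rose by 1.41 (SE 0.15, adjusted p = 1.80e-05) in rpc128-1007[-] and was lower at a log2 fold change of -2.25 (0.15, adjusted p = 1.87e-07) in [RBS1] against [RBS1-R3H]. At the lower end of the called genes of the list, HIS7 of histidine synthesis rose by 0.90 and ADE3 by 0.60 in rpc128-1007[-], and in [RBS1] against [RBS1-R3H] the least changed were GLN1, glutamine synthetase, at -0.97 and SHM2, serine hydroxymethyltransferase, at -0.66. ADE3 shares the gene name but encodes the trifunctional enzyme that makes one-carbon folates, and is not one of the 10. It was at 504, 533 and 554 CPM in wt, 831, 849 and 731 in rpc128-1007[-], 1154, 1297 and 1105 in [RBS1-R3H], 445, 451 and 429 in [PRT1] and 410.0, 492 and 482 in [RBS1], the division of strains seen for ADE12, and as for that gene the [RBS1-R3H] libraries lay above those of rpc128-1007[-]. ADE3 rose by 0.56 (SE 0.09, adjusted p = 0.00142) in [RBS1-R3H] against rpc128-1007[-].

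**Figure D3:**
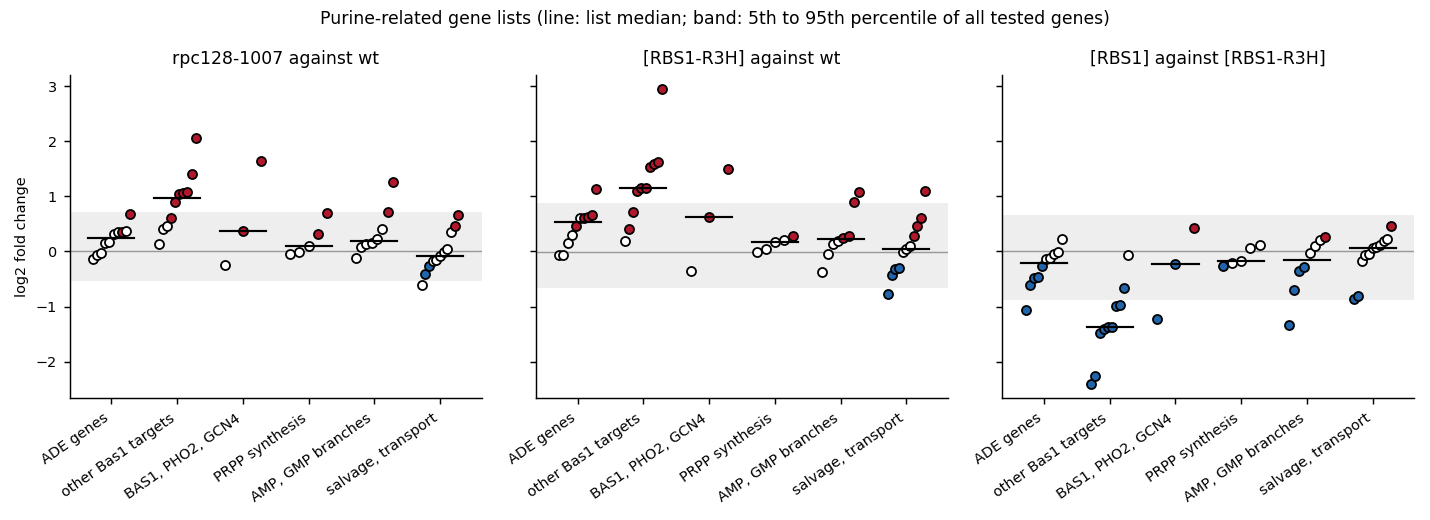
Log2 fold change (y axis) of the ADE genes and of 5 related gene lists in rpc128-1007[-] against wt, [RBS1-R3H] against wt and [RBS1] against [RBS1-R3H]; each point is a gene, red called higher, blue called lower, white not called, lines are list medians and the grey band holds the 5th to 95th percentile of all tested genes. The near-absent IMD1 is left out of the points and of the median of its list. The other Bas1 targets have medians of 0.97, 1.16 and -1.37, and the ADE genes of 0.25, 0.53 and -0.20.

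The genes that supply PRPP and those that use or salvage purines were read next. Of the 5 PRS genes, which encode the subunits that make PRPP, 2 were higher in rpc128-1007[-] against wt and none was lower, where 12.7% and 5.62% of all tested genes were called. PRS1 was at 481, 494 and 435 CPM in wt, 925, 687 and 674 in rpc128-1007[-] and between 433 and 562 in the other 3 strains, a log2 fold change of 0.70 (SE 0.11, adjusted p = 0.00046) against wt. It was lower in [RBS1-R3H] than in rpc128-1007[-], at a log2 fold change of -0.52 (0.11, adjusted p = 0.00648). PRS3 rose by 0.32 (0.09, adjusted p = 0.0189) in rpc128-1007[-], a call lost without replicate 3 of wt or replicate 2 of rpc128-1007[-]. It was highest in [PRT1], at 684, 718 and 671 CPM against 316 to 467 in the other strains, and higher there than in wt by 1.04 (0.09, adjusted p = 1.79e-06).

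In the branches from IMP to AMP and GMP, 2 of 9 listed genes were higher in rpc128-1007[-] against wt and none lower. Over all tested genes, 12.7% were called higher and 5.62% lower there. In [RBS1] against [RBS1-R3H] 1 listed gene was higher and 4 lower, where 13.5% and 14.4% of all tested genes were called. IMD2 and IMD3 encode IMP dehydrogenases, which lead to GMP, and rose by 1.25 (SE 0.17, adjusted p = 0.000137) and 0.71 (0.11, adjusted p = 0.000655) in rpc128-1007[-]. They were lower in [RBS1] than in [RBS1-R3H], at -1.34 and -0.69. Their coding sequences are 88.9% identical and share 8.01% of their 50-base words, so reads may be split between them and their levels are uncertain to that extent. The same holds for IMD4, 83.6% identical to IMD3, which was at 0.27 in [RBS1] against [RBS1-R3H], a call lost in 11 of the 25 alternatives. ADK1, adenylate kinase, was at -0.29 (0.06, adjusted p = 0.00405) there.

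Of 11 genes of purine uptake, salvage and breakdown, 2 were higher and 2 lower in rpc128-1007[-] against wt, beside the 12.7% and 5.62% of all tested genes. In [RBS1-R3H] against wt 4 were higher and 4 lower, beside 13.4% and 9.55%. The purine-cytosine permease gene FCY2 was at 675, 593 and 649 CPM in wt, 1026, 1069.9 and 954 in rpc128-1007[-], 1293, 1459 and 1343 in [RBS1-R3H], 812, 795 and 775 in [PRT1] and 693, 822 and 819.8 in [RBS1]. It rose by 0.67 (SE 0.08, adjusted p = 6.39e-05) in rpc128-1007[-] and was at -0.81 (0.08, adjusted p = 5.36e-06) in [RBS1] against [RBS1-R3H], with the rpc128-1007[-] and [RBS1-R3H] libraries above all others. The related FCY22 was at -0.85 in that comparison at a low level of 9.93 to 21.9 CPM. AAH1, adenine deaminase, rose by 0.47 in rpc128-1007[-], a call lost without replicate 3 of wt or replicate 2 of rpc128-1007[-]. FCY21 fell by 0.41 there. PNP1, purine nucleoside phosphorylase, was at -0.27 in rpc128-1007[-] against wt, a call lost without replicate 3 of wt or any 1 of the rpc128-1007[-] libraries, and at 0.47 in [RBS1] against [RBS1-R3H].

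The ADE genes also varied together between cultures of 1 strain. In [RBS1], replicate 2 had the highest level for 9 of the 10 genes and replicate 1 the lowest for 9, and the median deviations from the strain mean were 0.26 and -0.23 on the log2 scale. In [PRT1] replicate 1 was highest and replicate 3 lowest for 8 genes each, and in rpc128-1007[-] replicate 3 was lowest for 8. The deviations were largest for ADE17 and ADE2, from -0.62 for ADE17 in replicate 1 of [RBS1] to 0.55 in replicate 2. Trends with gene length ran beside these deviations in some libraries and not in others. Longer genes stood higher in replicate 2 of [RBS1] and replicate 1 of [PRT1] (rho 0.501 and 0.424) and lower in replicate 3 of [PRT1] and replicate 3 of rpc128-1007[-] (rho -0.46 and -0.38). Replicate 2 of rpc128-1007[-], with a rho of 0.559, was however highest for only 2 ADE genes, with a median deviation of 0.015, and replicate 1 of that strain, with a rho of -0.33, was highest for 7. Replicate 3 of [RBS1] had a rho of -0.457 and a median deviation of -0.0066. The part of gene length in the ADE deviations was not tested.

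**Figure D4:**
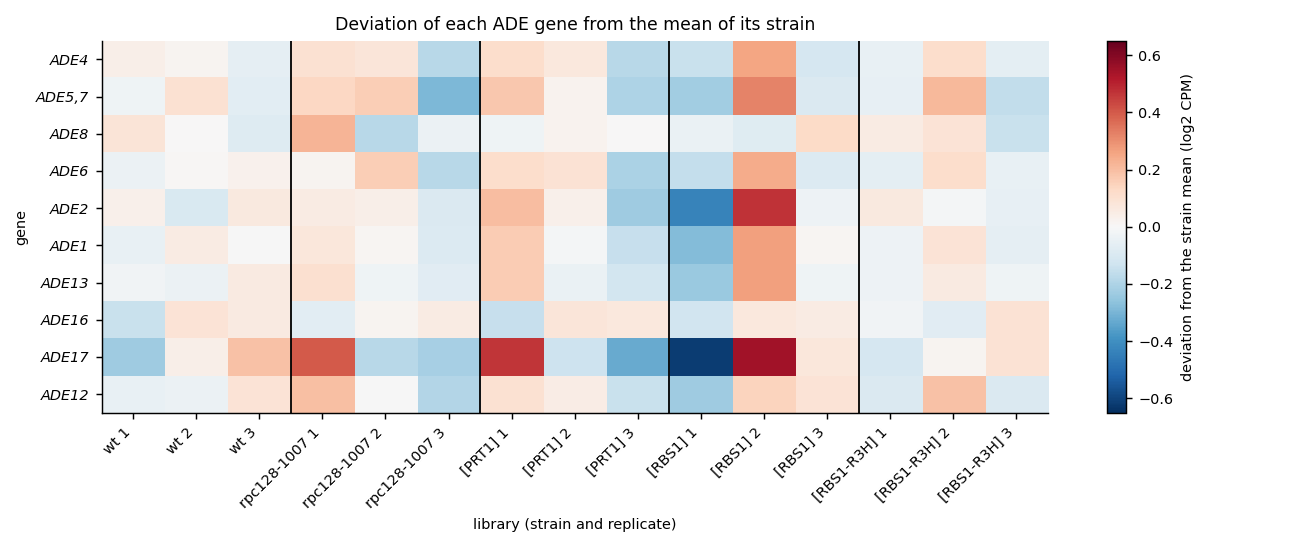
Deviation of each ADE gene (rows) from the mean of its strain, on the log2 CPM scale (colour), in each of the 15 libraries (columns). Replicate 2 of [RBS1] is above the mean for 9 of the 10 genes, ADE8 being the exception, and replicate 1 of [RBS1] is below it for all 10, down to -0.62 for ADE17.

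Over the 15 libraries, each ADE gene was set against the mean of the other 9, as log2 CPM. Pearson's r was 0.931 for ADE5,7, 0.926 for ADE6, 0.868 for ADE1, 0.856 for ADE17, 0.835 for ADE12, 0.820 for ADE13, 0.790 for ADE4 and 0.723 for ADE8, whereas it was 0.246 for ADE2 and 0.0926 for ADE16. The coefficients are descriptions, since the points share libraries and strains. ADE16 and ADE2 were thus the ones that followed the others least, and the reasons were not tested. Outside the pathway, the genes most like the mean of the 10 over the 15 libraries were LEU3 (r = 0.907), the regulator of leucine synthesis, VAS1 (0.903), PUS1 (0.901), CRS1 (0.900) and HTS1 (0.897). VAS1, CRS1 and HTS1 encode the tRNA synthetases for valine, cysteine and histidine, and PUS1 a tRNA pseudouridine synthase. Their mean levels were highest in [RBS1-R3H], with 532 CPM for HTS1 against 331 in wt and 138 CPM for LEU3 against 89.1 in wt.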

How the data were processed

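There were 15 RNA-seq libraries, with 3 cultures for each strain. The authors mapped paired-end reads to the EF4 assembly with TopHat2 2.0.11, counted them on genes in R and tested them with DESeq2 1.24.0 (versions per the submitters' processing notes), and they deposited raw counts without normalization for 6600 genes. Counting mode and use of strand are not given in the sources used here. Each column was matched to a strain and replicate by its label, and 0 columns were left out.

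Counts were analysed in R 4.3.3 with edgeR 4.0.16: TMM scaling (factors 0.932 to 1.05), filterByExpr (5851 genes kept), 1 mean per strain over all 15 libraries, quasi-likelihood tests of 9 comparisons, and Benjamini-Hochberg adjustment over the 5851 genes, with calls at an adjusted p under 0.05. Standard errors were derived from the fold change and the F statistic and are approximate. An exact permutation test of 3 against 3 cannot reach below 0.1, and calls rest on the spread shared across genes. Replicates differed by more than counting error (chi-square per gene 8.54 to 60.4). The fit was tested on simulated data, and no error rate for these libraries is taken from that. Levels in CPM are TMM-scaled.

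Names, coding lengths and upstream sequence came from RefSeq's R64 annotation, which matched 5917 identifiers. Protein sequences were not used here. No ADE gene overlaps another R64 gene.

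Members and lists were chosen with earlier results of these data known. The text names all 10 ADE genes, BAS1, PHO2 and GCN4, up to 2 highest and 2 lowest called genes of each further list in rpc128-1007[-] against wt and in [RBS1] against [RBS1-R3H], the 5 genes most correlated with the ADE mean, and the plasmid genes. IMD1, near 0, and YNK1 are in the list counts only.

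Residuals from strain means correlated above 0.1 between all same-numbered libraries in rpc128-1007[-] against wt (0.155 to 0.249), [RBS1] against rpc128-1007[-] (0.555 to 0.732), [RBS1] against [RBS1-R3H] (0.158 to 0.314) and [PRT1] against wt (0.262 to 0.358). Pairing by replicate number in these comparisons is an assumption, since no source names a shared batch. The main fit held no replicate block, so its standard errors, intervals and adjusted p-values ignore any such pairing. The block is among the alternatives. Alternatives were median-ratio scaling, library totals, DESeq2 1.42.0, limma-voom (limma 3.58.1), no filter, a replicate block, removal of the length trend, both together, fits of 2 strains, each library left out, and, chosen after seeing the data, replicate 2 of both rpc128-1007[-] and [RBS1] left out.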

Additional observations from a re-analysis of the deposited data

How the results depend on the processing

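Counts of called ADE genes are given in the order of the settings. With the replicate block, 4 were called in rpc128-1007[-] against wt, 4 in [PRT1] and 3 in [RBS1-R3H] against rpc128-1007[-], 1 in [PRT1] against wt and 2 in [PRT1] against [RBS1], and it changed no other count by over 1.5 times, although in [RBS1] against rpc128-1007[-] it added ADE4, called higher, to the 3 genes that fell. With the replicate block and the length trend removed, these were 4, 4, 5, 1 and 4. Removal of the length trend alone gave 4 in [RBS1-R3H] against rpc128-1007[-] and 2 in [PRT1] against [RBS1]. Library totals gave 3 in [RBS1] against [RBS1-R3H] and 3 in [PRT1] against [RBS1], where DESeq2 also gave 3. With only the 2 strains compared, fewer libraries set the spread, and the counts were 1 in rpc128-1007[-] against wt, 1 in [RBS1] and 0 in [RBS1-R3H] against rpc128-1007[-], 3 in [RBS1] against [RBS1-R3H], 0 in [RBS1] against wt and 0 in [PRT1] against [RBS1]. Without replicate 2 of both rpc128-1007[-] and [RBS1], 2 were called in [RBS1-R3H] against rpc128-1007[-], 1 in [RBS1] against wt and 0 in [PRT1] against [RBS1]. Calls over all tested genes changed with the setting too. In [RBS1-R3H] against rpc128-1007[-], the main fit called 273 genes higher and 398 lower. The replicate block gave 436 and 605, block and trend removal 667 and 635, and only the 2 strains 85 and 136. In rpc128-1007[-] against wt these were 745 and 329, 1000 and 616, 1005 and 788, and 466 and 170.

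Leaving out 1 library gave 1 to 4 called ADE genes in rpc128-1007[-] against wt, 2 to 4 in [PRT1], 2 to 3 in [RBS1] and 0 to 2 in [RBS1-R3H] against rpc128-1007[-], 3 to 5 in [RBS1] against [RBS1-R3H], 0 to 0 in [PRT1], 0 to 2 in [RBS1] and 5 to 6 in [RBS1-R3H] against wt, and 0 to 3 in [PRT1] against [RBS1]. Over the single genes named, 2631 of the recomputed values kept their direction and side of the threshold, 107 lost their call, 60 gained one and 2 changed sign. These were BAS1 in [RBS1-R3H] against rpc128-1007[-], at 0.054 without replicate 1 of rpc128-1007[-], in a range from -0.23 to 0.054 over single libraries left out, and GCN4 in [RBS1] against rpc128-1007[-], at -0.026 without replicate 3 of [RBS1], in a range from -0.026 to 0.075. Library totals shifted the median of all genes to 0.14 in [RBS1] against [RBS1-R3H] and -0.12 in [RBS1-R3H] against wt. Genes called higher and lower were then 1460 and 574 (788 and 842 with TMM) in the former, 580 and 1142 (782 and 559) in the latter, 592 and 599 (745 and 329) in rpc128-1007[-] against wt, 1125 and 715 (737 and 1000) in [RBS1] against rpc128-1007[-], 423 and 660 (500 and 455) in [PRT1] against [RBS1] and 347 and 345 (413 and 287) in [PRT1] against wt. The causes of these shifts were not tested. Replicate number, not depth, limits the ADE values. In the main fit, the smallest ADE change called was a log2 fold change of -0.27 for ADE16 in [RBS1] against [RBS1-R3H]. Smaller changes were called in some alternatives, such as -0.19 for ADE16 in [PRT1] against wt with the replicate block.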

Other observations

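The letters found upstream of 9 of the 10 ADE genes can be set against the calls over all genes, as a description with no test. In [RBS1-R3H] against wt, 27% of 686 tested genes with TGANTCA in the 500 bases upstream were called higher, 23.1% of 451 with TGACTC but without TGANTCA, and 10.6% of 4561 with neither. In rpc128-1007[-] against wt the shares were 23.5%, 18.6% and 10.9%. In [PRT1] against wt they were 8.16%, 6.65% and 7.1%. Of the ADE genes, 8 belong to the second of these classes, ADE12 to the first and ADE16 to the third. The median log2 fold change of the second class was 0.06 in rpc128-1007[-] and 0.07 in [RBS1-R3H], both against wt.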
